A study of Mus musculus with 20 samples.

Results

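The 10 genes described here (Adipoq, Lep, Cfd, Retn, Plin1, Plin4, Cidec, Fabp4, Scd1 and Pck1) are genes known from adipocytes, and they were followed in bulk RNA-seq of the gastrocnemius, a calf muscle. They were chosen by name: each symbol was matched to 1 Ensembl identifier of the count table, which lists 55401 genes. All 10 had a match, and all 10 were among the 13626 genes that passed the filter on low counts. The muscles came from 20 C57BL/6 mice of 24 months. Of these, 10 mice (called HK here) had drunk water with Haenkenium, a polyphenol-rich plant extract, from 20 months of age for 4 months. The extract was given at 0.5 mg/kg per day. The other 10 mice were untreated (labelled CTRL) and had drunk water alone. Each group held 5 males and 5 females. The labels split the mice into 2 experimental batches, batch 1 with 4 HK and 4 CTRL mice and batch 2 with 6 and 6, and both sexes were in each. The labels name no transgene or deletion. Young mice were not analysed here. Libraries held 13900180 to 30469644 counted reads (median 17016047).

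White adipocytes store triglyceride in a single large droplet, and between and around the fibres of skeletal muscle they appear in small numbers that rise with age, obesity and injury. They arise from fibro-adipogenic progenitors, stromal cells that lie between the fibres, under the transcription factors PPARG and the C/EBP proteins. The fibres themselves hold small lipid droplets, which carry other perilipins, and use fatty acids as fuel, so that a gene of lipid storage can be transcribed in both cell types. In bulk RNA, a change in the number of adipocytes and a change in the RNA of each adipocyte cannot be told apart.

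Because most of the 10 genes rose and fell together from mouse to mouse, as described below, the sequence before their starts is shown for 3 of them: Adipoq as the gene most like the others, and Plin1 and Lep, whose windows held a match to the C/EBP motif. The sequences are those of RefSeq on GRCm38.p6, read 5′ to 3′ on the gene's own strand, and stop where the annotated gene body begins. Capitals mark matches, on either strand, to TTGCNNAA (the C/EBP motif) and CCAAT (the CCAAT box).
Adipoq, chr16:23146286-23146535, plus strand: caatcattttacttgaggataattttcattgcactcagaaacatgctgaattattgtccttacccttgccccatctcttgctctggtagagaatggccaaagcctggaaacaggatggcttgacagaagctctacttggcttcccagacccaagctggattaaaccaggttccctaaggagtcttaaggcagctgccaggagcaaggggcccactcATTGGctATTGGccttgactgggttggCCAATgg
Plin1, chr7:79732904-79733026, minus strand: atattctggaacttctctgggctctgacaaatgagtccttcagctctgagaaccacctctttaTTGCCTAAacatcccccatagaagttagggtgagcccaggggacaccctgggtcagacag
Lep, chr6:29059971-29060219, plus strand: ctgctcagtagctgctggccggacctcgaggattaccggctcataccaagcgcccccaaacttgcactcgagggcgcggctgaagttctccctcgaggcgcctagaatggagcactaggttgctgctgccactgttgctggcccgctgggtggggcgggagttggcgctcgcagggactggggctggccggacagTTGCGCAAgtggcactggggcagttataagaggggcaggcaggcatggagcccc

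RefSeq windows of 250 bases before the start were at hand for 8 of the 10 genes (9 windows, Cidec having 2). TTGCNNAA was found in Plin1 (at -187 to -180 and at -58 to -51 from the start), Lep (-55 to -48) and the inner start of Cidec (-198 to -191). That is 3 of 8 genes and 3 of 9 windows, beside 9.56% of 32851 windows of all genes. CCAAT was found in Adipoq (3 matches, the nearest at -7 to -3) and Plin4, 2 of 8 genes and 2 of 9 windows, beside 33.8% of all windows. The E-box CANNTG was in all 8 genes (8 of 9 windows) and in 66.2% of all windows. In Lep it overlapped the C/EBP match on both sides. None of the 8 genes held AGGTCA (14% of all windows), the PPAR response element, a repeat of it (0.0335%), TATAAA (12.4%) or the SREBP motif TCACNCCAC (1.05%). These are matches of letters and were not tested as binding sites.

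The tissue was muscle by its markers, and the 10 genes covered a wide range of levels. Levels below are in CPM, the counts of a gene scaled to the size of its library, or, between genes, in RPKM, which is CPM divided by the length of annotated exons in kilobases. Creatine kinase (Ckm) stood at 7280 ± 892 RPKM (mean ± SD, n = 20). By RPKM, the highest of the 10 genes was Plin4 (47.6 ± 20.4 RPKM), followed by Cfd (33.3 ± 26.0), Fabp4 (26.8 ± 6.90) and Scd1 (17.2 ± 16.9). Adipoq (5.09 ± 3.98 RPKM), Cidec (2.93 ± 2.28), Retn (2.42 ± 2.30), Pck1 (1.25 ± 1.53), Plin1 (1.05 ± 0.932) and Lep (0.677 ± 1.07) followed. Among 13619 genes ranked by mean RPKM, Plin4 was at place 654, Cfd at 932, Fabp4 at 1146 and Scd1 at 1711, and the other 6 lay from 4510 (Adipoq) to 10512 (Lep). The ranges of neighbours in this order overlapped at every step. The annotated exons of Fabp4 together cover its whole gene of 4489 bases, introns included. Its RPKM and place may therefore be too low, and its position in this order is not settled. In CPM the means were 120 for Fabp4, 275 for Plin4 and 118 for Fabp3. Fabp3, the fatty acid binding protein of muscle fibres, stood at 143 ± 36.4 RPKM, and the perilipins of fibres, Plin2 and Plin5, at 7.88 ± 1.52 and 7.80 ± 1.98 RPKM, above Plin1. Ucp1, which defines brown fat, had 2 reads in all 20 libraries together, and Elovl3 had 4.

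**Figure D1:**
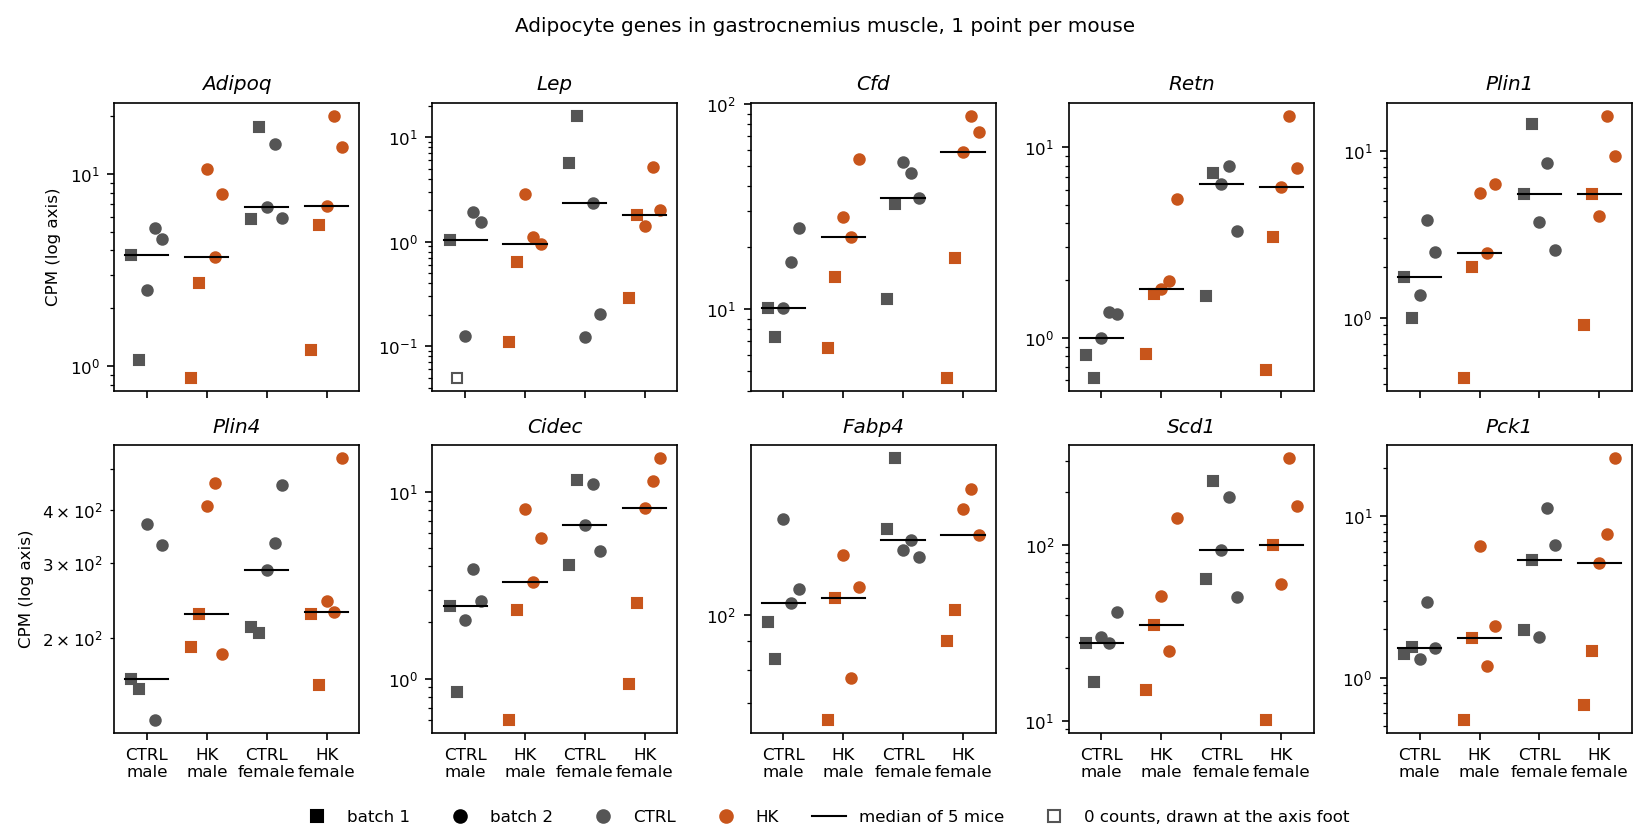
Level of each of the 10 genes in each mouse, in CPM on a log axis, by treatment and sex. Squares are batch 1, circles batch 2, and lines are medians of 5 mice. HK and CTRL mice overlap for every gene, and most females lie above the median of the males for every gene.

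HK and CTRL mice did not differ detectably in any of the 10 genes. The question of the series is what the extract changed in old muscle, and in the fit across all genes with batch and sex as covariates 0 of 10 adipocyte genes were called at an adjusted p below 0.05, beside 0% of the 13626 genes tested. At an unadjusted p below 0.05 there were 379 genes higher and 456 lower in HK mice, 6.13% of all, and none of the 10. By DESeq2, 6 genes were called higher and 1 lower, by limma voom 0, and none of these was among the 10. Without the filter on low counts, edgeR called 502 genes, Cfd and Scd1 among them, and 0 with its newer quasi-likelihood. The estimates were above 0 for 7 of the 10 genes and below 0 for 3, with a median log2 fold change of 0.13, beside 0.00 for all genes tested, of which 51.0% were above 0.

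Among the secreted factors, Adipoq (adiponectin, chr16:23146536-23158028) ranged from 0.874 CPM over a median of 6.12 to 20.0 CPM in HK mice, and from 1.08 over 5.55 to 17.6 CPM in CTRL mice. The groups covered the same range, and the log2 fold change was -0.03 (SE 0.40, 95% interval -0.87 to 0.81, adjusted p = 0.994). Lep (leptin, which signals the size of fat stores to the brain, chr6:29060220-29073877) ran from 0.109 over 1.25 to 5.23 CPM in HK and from 0 over 1.29 to 16 CPM in CTRL mice. The highest values were CTRL, the interval of its log2 fold change was the widest of the 10 (-0.57, interval -2.13 to 0.99, adjusted p = 0.917), and its value without CTRL_Female replicate 2 was -0.02. Cfd (complement factor D or adipsin, the protease that starts the alternative complement pathway, chr10:79890853-79892655) ran from 4.63 over 25.3 to 87.8 CPM in HK and from 7.34 over 21.0 to 52.5 CPM in CTRL mice. Its groups overlapped, with a log2 fold change of 0.41 (SE 0.29, adjusted p = 0.832). Retn (resistin, chr8:3655770-3660110) ran from 0.676 over 2.69 to 14.6 CPM in HK and from 0.618 over 1.52 to 7.97 CPM in CTRL mice. It had the highest estimate of the 10, 0.45 (SE 0.37, interval -0.32 to 1.22, adjusted p = 0.848).

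The lipid droplet genes also gave estimates near 0. Plin1 (perilipin 1, the coat of the adipocyte's droplet and gate of its lipolysis, chr7:79720218-79732903) ran from 0.437 over 4.79 to 16.2 CPM in HK and from 1 over 3.13 to 14.5 CPM in CTRL mice, with a log2 fold change of 0.12 (SE 0.45). Cidec (which fuses small droplets into large ones, chr6:113424634-113435760) had medians of 4.48 CPM in HK and 3.98 CPM in CTRL mice and a log2 fold change of 0.05 (SE 0.38). Plin4 (perilipin 4, a droplet coat protein also made in muscle, chr17:56100591-56109803) had medians of 229 and 251 CPM and a log2 fold change of 0.13 (SE 0.20). Plin4 overlaps Hdgfl2 on the other strand, and since the strand used in counting is not given in the sources used here, reads of Hdgfl2 in the shared stretch cannot be told apart.

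Among the genes of lipid handling and synthesis, Fabp4 (the fatty acid carrier of adipocytes, also made in capillary endothelium, chr3:10204088-10208576) had the narrowest interval. It ran from 65.4 over 110 to 166 CPM in HK and from 83.6 over 128 to 188 CPM in CTRL mice, with a log2 fold change of -0.17 (interval -0.43 to 0.09, adjusted p = 0.836). Scd1 (stearoyl-CoA desaturase, which makes monounsaturated fatty acids, chr19:44394455-44407879) had medians of 55.5 and 46.0 CPM and a log2 fold change of 0.29 (SE 0.46). Pck1 (phosphoenolpyruvate carboxykinase, which supplies glycerol for triglyceride in fat, chr2:173153048-173159273) had medians of 1.94 and 1.88 CPM and a log2 fold change of 0.23 (SE 0.45). The 95% intervals ran from -0.67 to 1.25 for Scd1 and from -0.70 to 1.16 for Pck1, and changes inside these intervals remain possible.

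The estimates pointed in different directions in the 2 batches. In batch 1, Adipoq stood at 3.79 and 1.08 CPM in the CTRL males, 5.84 and 17.6 CPM in the CTRL females, 0.874 and 2.72 CPM in the HK males and 1.22 and 5.44 CPM in the HK females. The HK mice of batch 1 were on the low side, with overlap. In batch 2 it stood at 2.49, 5.25 and 4.59 CPM in the CTRL males, 6.74, 14.3 and 5.88 CPM in the CTRL females, 10.6, 3.68 and 7.89 CPM in the HK males and 6.80, 20.0 and 13.8 CPM in the HK females, and there 2 of 3 HK males were above every CTRL male and 1 of 3 HK females was above every CTRL female. The log2 fold change of Adipoq was -1.28 (SE 0.62) in batch 1 and 0.72 (SE 0.32) in batch 2. Over the 10 genes, 9 were below 0 in batch 1 (all but Plin4, median -0.91) and all 10 were above 0 in batch 2 (median 0.85), beside 51.8% and 51.7% of all genes above 0. None was called in either batch at an adjusted p below 0.05, beside 0% of all genes tested in each.

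Single genes showed the same turn. Lep gave -2.65 (SE 0.88) in batch 1 and 1.07 (SE 0.66) in batch 2, Cidec -1.33 (SE 0.63) and 0.79 (SE 0.26), Pck1 -1.12 (SE 0.50) and 0.83 (SE 0.50). Cfd gave -0.41 (SE 0.50) and 0.86 (SE 0.24), and Retn -0.45 (SE 0.68) and 0.91 (SE 0.32). Plin4 did not share it, with 0.15 (SE 0.14) and 0.12 (SE 0.30). In the test of the difference between batches (n = 20 mice), Cidec (p = 0.00343), Lep (p = 0.00858), Adipoq (p = 0.00890), Plin1 (p = 0.0132) and Cfd (p = 0.0459, all unadjusted, edgeR) were below 0.05, and all 10 had an adjusted p of 0.9997, since 3.01% of 13800 genes were below 0.05 and 0% were called. The 10 genes are not independent of each other, as their correlations below show.

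The size of the turn depended in part on a single mouse. CTRL_Female replicate 2, a batch 1 mouse, had the highest Lep and Fabp4 of all 20 mice and the second highest Adipoq, Plin1, Cidec and Scd1. Without it, 4 of the 10 genes were above 0 in batch 1 and 6 below (median -0.39): Adipoq stood at -0.64, Lep at -1.75 and Cidec at -0.69, while Cfd became 0.13, Retn 0.51 and Scd1 0.00. Over both batches without it, 8 of the 10 were above 0 (median 0.37), with Retn at 0.78 (SE 0.31) and Cfd at 0.59 (SE 0.27), and 0 were called (adjusted p = 0.964 for both), beside 0% of all genes tested. The difference between batches in the effect of HK was then above 0 for 9 of the 10 genes with a median of 1.13, against 9 of the 10 and a median of 1.72 with that mouse. Its test then had an unadjusted p below 0.05 for Cidec (0.0230) and Lep (0.0415).

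By sex, the estimates of HK minus CTRL were above 0 for 9 of the 10 genes in males (median 0.46) and for 2 in females (median -0.13), and none was called, beside 0% of all genes tested in each sex. Retn had the largest in males, with 0.817, 0.618, 0.995, 1.37 and 1.34 CPM in the CTRL and 0.819, 1.70, 1.80, 1.99 and 5.36 CPM in the HK males. Most HK males were above all CTRL males, and the log2 fold change was 1.12 (SE 0.35, adjusted p = 0.656, edgeR). The difference between the sexes in the effect of HK (n = 20 mice) was not past an unadjusted p of 0.05 for any of the 10, beside 3.5% of all genes tested, and the lowest was that of Retn with p = 0.133 (edgeR).

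**Figure D2:**
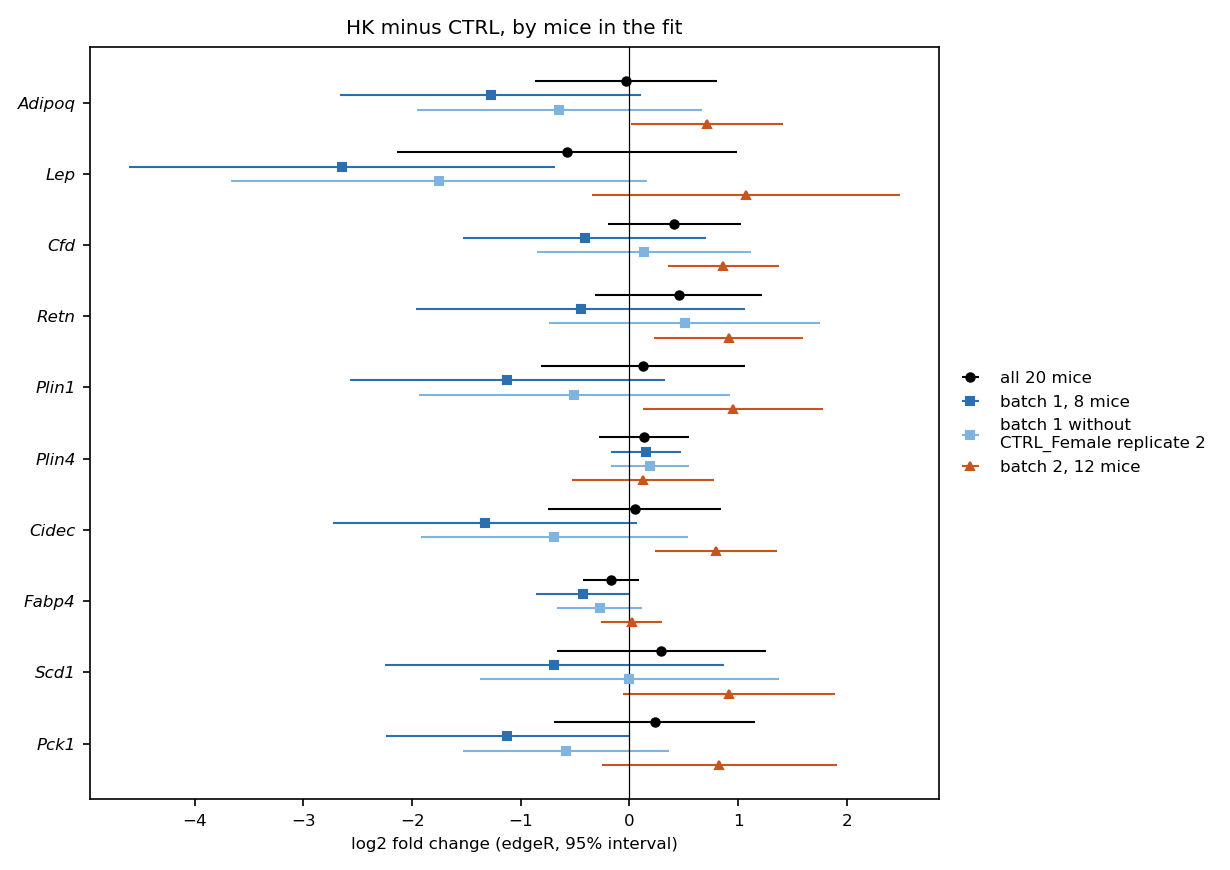
Log2 fold change HK minus CTRL (x axis, edgeR, lines are 95% intervals) for each of the 10 genes in 4 fits. The batch 1 estimates lie left of 0 for all but Plin4 and move right when CTRL_Female replicate 2 is left out, and the batch 2 estimates lie right of 0 for all 10.

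Males had less of these transcripts than females. The estimates were below 0 for all 10 genes, with a median log2 fold change of -1.40 beside -0.01 for all genes tested, and 8 of the 10 were called lower in males at an adjusted p below 0.05, where 7.33% of all 13626 genes were. The exceptions to the call were Lep and Plin4. The 8 were Retn, Scd1, Cfd, Cidec, Plin1, Fabp4, Pck1 and Adipoq.

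Retn showed the largest difference. In males it ran from 0.618 over a median of 1.35 to 5.36 CPM and in females from 0.676 over 6.31 to 14.6 CPM. Of the 10 females, 6 were above the highest male, and the log2 fold change was -1.85 (SE 0.37, adjusted p = 0.00168). Scd1 ran from 15 over 28.9 to 143 CPM in males and from 10.1 over 96.9 to 312 CPM in females. The lowest of all mice was a female, HK_Female replicate 1, while 9 of 10 females were above the male median (-1.75, SE 0.46, adjusted p = 0.0124). Pck1 ran from 0.546 over 1.54 to 6.55 CPM and from 0.676 over 5.24 to 22.9 CPM, and 4 females were above every male (-1.49, SE 0.45, adjusted p = 0.0267).

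The droplet genes and adiponectin gave differences of like size. Plin1 had medians of 2.21 CPM in males and 5.51 CPM in females (-1.49, SE 0.44, adjusted p = 0.0258), and Cidec 2.53 and 7.47 CPM (-1.32, SE 0.37, adjusted p = 0.0197). Adipoq ran from 0.874 over 3.74 to 10.6 CPM in males and from 1.22 over 6.77 to 20.0 CPM in females (-1.27, SE 0.40, adjusted p = 0.0337), and 9 of 10 females were above the male median. Cfd had medians of 15.7 and 40.5 CPM (-1.06, SE 0.29, adjusted p = 0.0171). Fabp4 differed by a smaller factor, with medians of 106 and 137 CPM (-0.42, SE 0.12, adjusted p = 0.0267). For Plin4 the medians were 209 and 237 CPM and the interval of its log2 fold change included 0 (-0.15, interval -0.57 to 0.26, adjusted p = 0.651).

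Lep had medians of 0.996 CPM in males and 1.91 CPM in females, and a log2 fold change of -1.62 (SE 0.73, adjusted p = 0.139). In batch 1 the 4 females had 0.290, 1.81, 5.66 and 16 CPM and the 4 males 0, 0.109, 0.641 and 1.05 CPM. In batch 2 the 6 females ran from 0.122 to 5.23 CPM and the 6 males from 0.124 to 2.89 CPM, and the sexes overlapped. The log2 fold change was -3.03 (SE 0.89) in batch 1 and -0.27 (SE 0.65) in batch 2, and the test of that difference, added after its values were seen (n = 20 mice), had p = 0.0425 (adjusted p = 0.362, edgeR, where 0% of all genes were called). The sum of epithelial genes was also high in the batch 1 females. The summed level of 6 such genes (5 keratins and Epcam, of which Krt8 and Krt18 passed the filter) was 41.1 CPM in CTRL_Female replicate 1, 21.1 CPM in HK_Female replicate 1, 20.4 CPM in CTRL_Female replicate 2 and 13.2 CPM in HK_Female replicate 2. These were the 4 highest of the 20 mice, the next female having 12.1 CPM and the males 2.39 to 11.6 CPM, and Epcam had 22 reads in all libraries together. Krt5, below the filter, had 558 reads in all libraries together and 17.7 CPM in its highest mouse. Krt8 and Krt18 were not called between the batches (adjusted p = 0.813 and 0.710, edgeR) or between the sexes (0.667 and 0.318). The part of epithelial RNA in these leptin values was not tested.

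The sex difference had the same sign for all 10 genes in each batch. In batch 1 alone 0 of the 10 were called lower (median log2 fold change -1.37), beside 3.94% of all genes tested, and in batch 2 alone 3 were, beside 2.96%: Retn (-1.93, adjusted p = 0.00382), Cfd (-1.21, adjusted p = 0.0104) and Cidec (-1.20, adjusted p = 0.0177). Without CTRL_Female replicate 2, 5 of the 10 were called over all mice, beside 5.8% of all genes tested, Adipoq (adjusted p = 0.0658), Fabp4 (0.0597) and Pck1 (0.0653) being lost. Without HK_Female replicate 4, the mouse highest in 5 of the 10 genes, 5 were called as well, beside 5.92%. Retn, Scd1, Cfd and Cidec were called in each of the 20 fits that left out 1 mouse. Plin1 was called in 19 of them, Fabp4 and Pck1 in 17 and Adipoq in 12. The call of Adipoq was also lost without single males, namely CTRL_Male replicate 2, 3, 4 or 5 or HK_Male replicate 1.

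Of 17 further genes known from adipocytes, 16 passed the filter, 14 had estimates below 0 for males, 10 were not called and 6 were called lower, where 7.33% of all genes were: the beta-3 adrenergic receptor Adrb3 (log2 fold change -2.88), the amino acid transporter Slc7a10 (-2.0), the natriuretic peptide receptor Npr3 (-1.13), the activin receptor Acvr1c (-0.85), Car3 (-0.80) and Sncg (-0.74). Car3 had a mean of 3366 CPM. From mouse to mouse, Car3 and Npr3 followed the 10 genes little (r = 0.09 and 0.25 with their mean, as described below). Pparg and Cebpa, the regulators of the adipocyte state, gave -0.59 (adjusted p = 0.0643) and -0.63 (adjusted p = 0.102), and Mest stood on the other side with 1.04 (adjusted p = 0.0770). Slow fibre genes also differed between the sexes: 5 of 6 were called lower in males, among them the slow myosin Myh7 (-1.46), and their summed level ran from 542 over a median of 723 to 5180 CPM in males and from 1970 over 2630 to 3550 CPM in females. Of 16 genes of fatty acid and triglyceride synthesis, the elongase Elovl6 (-1.13), Acaca (-0.61) and Mlxipl (-0.57) were called lower in males and Me1 (0.26) higher. Of the fibro-adipogenic progenitor genes 0 of 8 were called between the sexes, and 0 of 6 endothelial genes, while 1 of 8 macrophage genes was called higher in males. Over all 13626 genes tested, 1198 were called higher in males. The part of fibre type in the sex difference was not tested.

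Several of the genes were higher in batch 2. Of the 10, 9 had a positive log2 fold change for batch 2 minus batch 1 (all but Lep, median 0.87) and 5 were called higher, beside 18.2% of all genes tested. Cfd ran from 4.63 over a median of 10.7 to 32.5 CPM in batch 1 and from 10.1 over 40.5 to 87.8 CPM in batch 2. The batches overlapped, with 7 of the 12 batch 2 mice above every batch 1 mouse (1.57, SE 0.31, adjusted p = 0.000796). Plin4 ran from 151 over 198 to 228 CPM and from 128 over 332 to 530 CPM, and 10 of 12 batch 2 mice were above every batch 1 mouse (0.79, SE 0.21, adjusted p = 0.00542). Pck1 (1.5, adjusted p = 0.0183), Cidec (1.16, adjusted p = 0.0264) and Retn (1.10, adjusted p = 0.0297) were the others.

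The batch difference was not alike in the 2 treatments. Among HK mice all 10 estimates were above 0 (median 1.82) and 5 were called higher, beside 5.1% of all genes tested: Cidec (2.38), Cfd (2.24), Adipoq (2.06), Pck1 (2.53) and Retn (1.83). Among CTRL mice 8 of 10 were above 0 (median 0.16), Cfd (1.0) and Plin4 (0.81) were called higher, beside 8.05% of all genes tested, and Lep stood at -1.87 (SE 1.02). The test of this unlikeness is that of HK by batch given above. Without CTRL_Female replicate 2, 9 of the 10 were called higher in batch 2, all but Lep, beside 17.9% of all genes tested. Without HK_Male replicate 1, HK_Female replicate 1 or HK_Female replicate 2, all of batch 1, 3 were, where 2112, 2356 and 2444 of all genes tested were. In the 20 fits that left out 1 mouse, Cfd, Plin4 and Pck1 were called each time, Cidec in 17 and Retn in 13.

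Markers of some other cells were also higher in batch 2, where 18.2% of all genes tested were called higher. All 8 fibro-adipogenic progenitor genes that passed the filter were called higher, with summed levels from 298 over a median of 615 to 918 CPM in batch 1 and from 659 over 938 to 1490 CPM in batch 2. All 8 macrophage genes were called higher (15.1 over 27.5 to 46.9 CPM, and 42.0 over 90.2 to 177 CPM), as were all 5 red blood cell genes (30.4 over 71.7 to 98.6 CPM, and 60.8 over 145 to 403 CPM). Of 6 endothelial genes 1 was, which is near the share of all genes. Of the 16 further adipocyte genes 5 were called higher and 1 lower in batch 2, and of the 16 genes of fatty acid and triglyceride synthesis 6 higher and 2 lower. Over all 13626 genes tested, 2474 were called higher and 2588 lower. What the batches were is not said in the labels, and the part of these cells in the batch difference of the 10 genes was not tested.

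**Figure D3:**
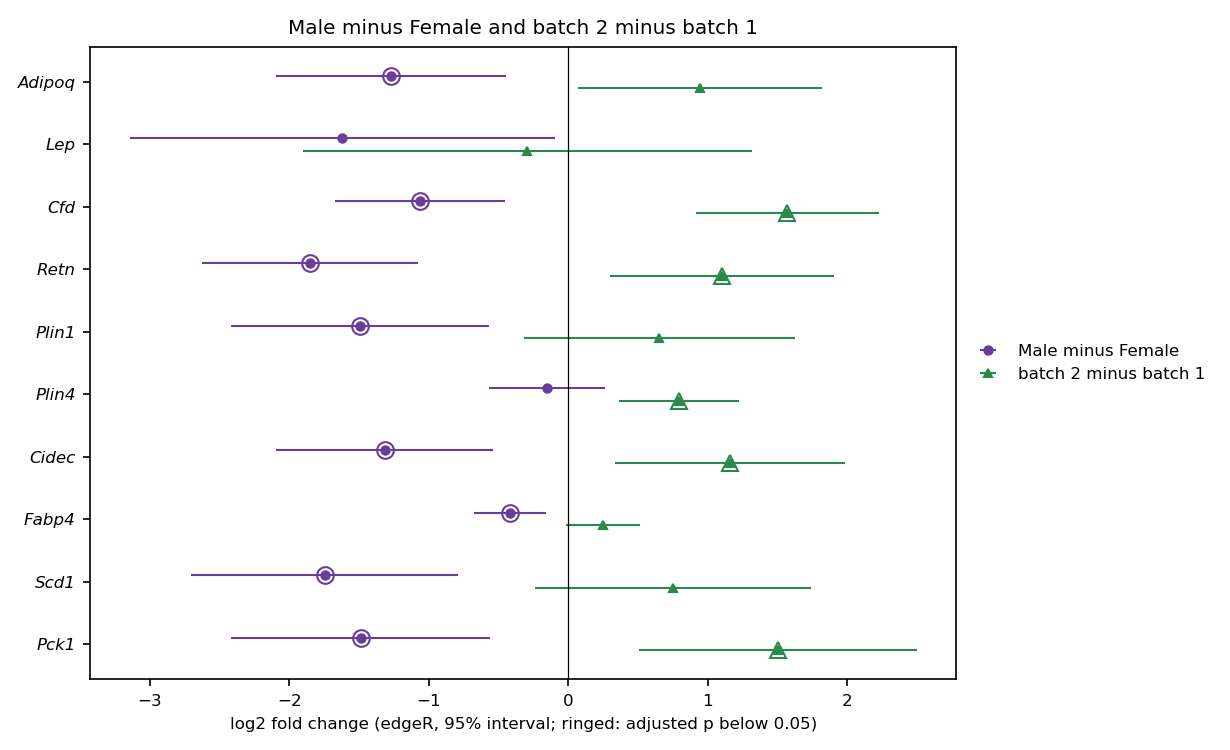
Log2 fold changes (x axis, edgeR, lines are 95% intervals) of the 10 genes for Male minus Female (circles) and batch 2 minus batch 1 (triangles). Outlined symbols mark an adjusted p below 0.05, which 8 genes reach below 0 for sex and 5 above 0 for batch.

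Single mice differed widely. After batch, sex and treatment were taken out, the SD of the log2 CPM between mice was 1.89 for Lep, 1.16 for Scd1, 1.10 for Plin1, 1.06 for Pck1, 0.98 for Adipoq, 0.91 for Cidec, 0.85 for Retn and 0.77 for Cfd, beside a median of 0.22 over all genes tested. These 8 were at or above the 97.2nd percentile of all genes. Plin4 (0.51) and Fabp4 (0.30) varied less. Adipoq spanned a factor of 22.9 between its lowest and highest mouse, Pck1 41.9, Plin1 37.0 and Scd1 30.7, whereas Fabp4 spanned 2.88 and Plin4 4.15.

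The same mice were high or low for most of the genes. HK_Female replicate 4 had the highest value for 5 of the 10, HK_Female replicate 5 for 3 and CTRL_Female replicate 2 for 2. HK_Male replicate 1 had the lowest value for 5, and HK_Female replicate 1 was the lowest of the females for 8. With batch, sex and treatment taken out, the 36 pairs among the 9 genes other than Plin4 had correlations from 0.47 to 0.96 (median 0.75, n = 20 mice), and from 0.28 to 0.95 without CTRL_Female replicate 2. These points share library and depth, and a difference in the effect of HK between the batches was not taken out. The correlations are given as a description.

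Adipoq and Plin1 were the most alike pair (r = 0.96), followed by Adipoq and Cidec (0.95), Cfd and Retn (0.93) and Retn and Scd1 (0.92). Against the mean of the other 9 genes, Adipoq and Cidec had r = 0.95, Plin1 0.91, Scd1 0.87, Cfd 0.80, Retn 0.77, Lep 0.73, and Pck1 and Fabp4 0.67. Plin4 had r = -0.15, and its correlations with the single genes ran from -0.26 to 0.12. Over all 13626 genes, correlations with the mean of the 10 ran from -0.42 at the 5th percentile to 0.45 at the 95th and 0.65 at the 99th.

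**Figure D4:**
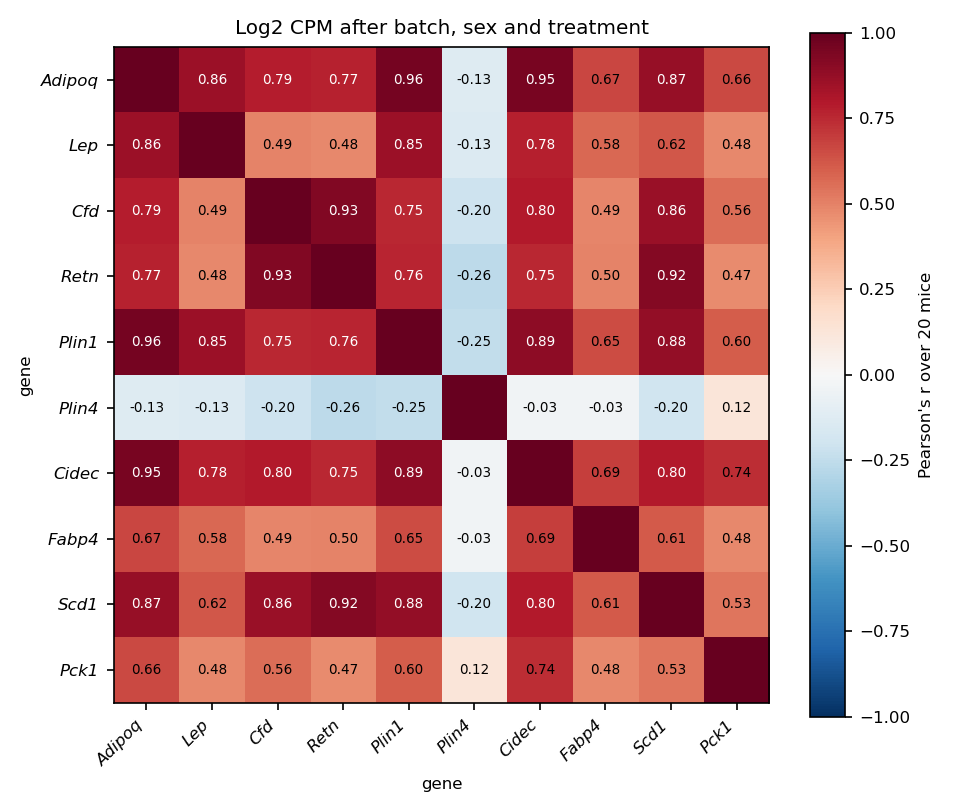
Pearson's r between the 10 genes (rows and columns) over 20 mice, from log2 CPM after batch, sex and treatment were taken out. Plin4 has values from -0.26 to 0.12 with the other genes, which among themselves have 0.47 to 0.96.

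Leptin parted from adiponectin in a few mice. The ratio of Lep to Adipoq reads ran from 0.119 over a median of 0.236 to 0.333 in the 10 HK mice and from 0 over 0.221 to 0.970 in the 10 CTRL mice. The 2 highest were the CTRL females of batch 1, with 0.970 (CTRL_Female replicate 1, 160 Lep reads and 165 Adipoq reads) and 0.912 (CTRL_Female replicate 2, 385 and 422 reads), the mice with the highest and the third highest sum of epithelial genes. The HK females of batch 1, with epithelial sums of 21.1 CPM (replicate 1) and 13.2 CPM (replicate 2), had ratios of 0.237 and 0.333. The lowest with any Lep read were CTRL_Female replicates 3 and 5 and CTRL_Male replicate 3, all of batch 2, with 0.0182 (2 and 110 reads), 0.0349 (3 and 86) and 0.05 (2 and 40). CTRL_Male replicate 2 had 0 Lep reads and 14 Adipoq reads, which allows up to 3 Lep reads. The 10 HK mice thus lay inside the range of the CTRL mice, which held both ends, and this difference in spread was not tested.

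**Figure D5:**
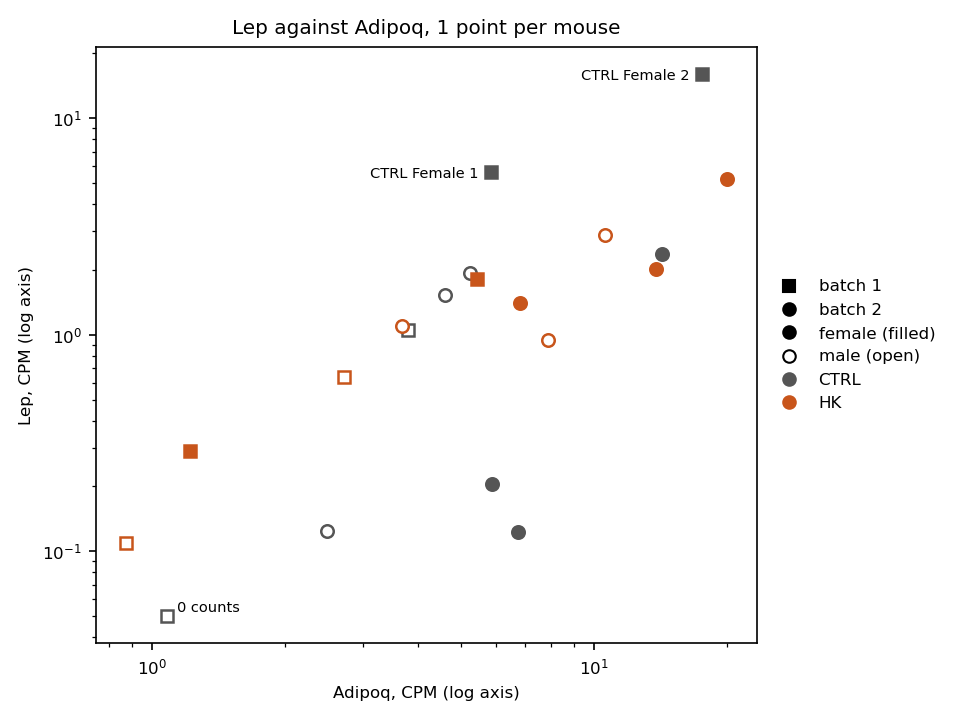
Lep against Adipoq in each mouse, in CPM on log axes. CTRL Female 1 and 2 lie above the other mice of like Adipoq level, and the 3 CTRL mice of batch 2 with 2 or 3 Lep reads lie below them.

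Outside the lists compared here, the genes whose level over the 20 mice was most like the mean of the 10 included Trf (transferrin, r = 0.92), Smoc1 (0.90), Pde3b (the phosphodiesterase by which insulin curbs lipolysis, 0.88), Ankef1 (0.87), Prkar2b (a regulatory subunit of protein kinase A, 0.86), Serpina3c (0.86), Tmem45b (0.85), Rbp4 (retinol binding protein, 0.84) and Aoc3 (an amine oxidase of the cell surface, 0.84). Of these 9, Trf, Smoc1, Pde3b, Serpina3c and Tmem45b were also among the 10 most alike without CTRL_Female replicate 2. None of the 9 was called between HK and CTRL mice, and Tmem45b, Rbp4 and Aoc3 were called lower in males (log2 fold changes -1.80, -1.24 and -0.94).

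Among the lists of other genes given here, those of adipocytes and progenitors had the highest medians over the 20 mice. The 16 further adipocyte genes had a median r of 0.57 with the mean of the 10 (from 0.09 for Car3 to 0.83 for Lgals12), and the 8 progenitor genes one of 0.62, with Dcn at 0.76 and Gsn at 0.71. The 8 macrophage genes had a median of 0.47 and the 6 endothelial genes one of 0.38. The 16 genes of fatty acid and triglyceride synthesis had 0.32, among them Acly (0.77), Fasn (0.60) and Elovl6 (0.58). Muscle fibre genes (median -0.06), slow fibre genes (-0.16) and red blood cell genes (-0.04) were near 0. Without CTRL_Female replicate 2 the medians were 0.49 for the adipocyte, 0.55 for the progenitor, 0.34 for the macrophage and 0.30 for the synthesis genes. That of the endothelial genes was then 0.48, of muscle fibre genes 0.10, of red blood cell genes 0.17 and of slow fibre genes -0.18, so that the order of the lists depended on that mouse. Not one gene of these lists was called between HK and CTRL mice.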

How the data were processed

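RNA of gastrocnemius muscle was depleted of ribosomal RNA and sequenced on a NextSeq instrument. The deposited table holds the authors' raw counts per Ensembl gene, and the submitters' processing notes name STAR 2.6.1c, DESeq2 1.28.1 and GRCm38.p6, with neither the counter nor its strand setting given in the sources used here. Treatment, sex, batch and replicate were read from the sample labels, and age from the study's methods. The treated females have HF in their titles and Haenkenium extract as treatment label, and are called HK here. Symbols, positions and exon lengths came from GENCODE M21 on the same build, which matched 55141 of 55401 identifiers. The other 260 held 0.00127% of counts. Libraries held 13900180 to 30469644 reads.

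Counts were filtered with filterByExpr, scaled by TMM and tested with the quasi-likelihood test of edgeR 4.0.16 in R 4.3.3, on all 20 mice with treatment, sex and batch in 1 model. p-values were adjusted by Benjamini-Hochberg over all genes tested, and the threshold was 0.05. Standard errors follow from the test's F value, and intervals are 95%. CPM and RPKM use the TMM-scaled library sizes, and log2 CPM has a prior count of 2. Correlations use log2 CPM after removal of treatment, sex and batch, but not of a difference in the effect of HK between the batches. DESeq2 1.42.0, limma 3.58.1, other filters and subsets of mice were alternatives. The fit was tested on simulated counts. No library was a repeat of another of its group and batch (chi-square of counts over degrees of freedom 8.06 to 49.6 in 16 pairs of mice). Pairs across groups or batches were not compared. The 10 genes and the other lists were chosen with earlier results of these data known. Genes were named from the 10, from those lists, and as the 10 outside them whose level over mice was most like the mean of the 10, of which 9 are given. Some genes are not reported here. Promoter sequences are RefSeq's (GRCm38.p6).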

Additional observations from a re-analysis of the deposited data

Results flagged for a closer look

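Of the 40 combinations of gene and group of 5 mice, 6 held a mouse that stood apart from the other 4 by Dixon's criterion (gap over range above 0.71). Chance gives about 1 in 20 only for independent values of a normal distribution. The CPM were not on a log scale and the genes share mice, so the 6 cannot be set against that rate. They were Fabp4 in CTRL_Female replicate 2 (188 CPM, next 141), Retn in HK_Male replicate 5 (5.36 CPM, next 1.99), Scd1 in the same mouse (143 CPM, next 51.0), Plin4 in HK_Female replicate 5 (530 CPM, next 244), Pck1 in CTRL_Male replicate 4 (2.95 CPM, next 1.54) and Pck1 in HK_Male replicate 3 (6.55 CPM, next 2.10). In each case the mouse was the highest of its group. HK_Male replicate 5 was flagged for 2 genes, and its Retn and Scd1 levels lie within the range of the females.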

How the results depend on the processing

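For HK minus CTRL, 0 of the 10 adipocyte genes were called in any of the fits except that without the filter on low counts (502 genes called, 2 of the 10, Cfd and Scd1), where edgeR's prior degrees of freedom became infinite. With its newer quasi-likelihood and no filter, an alternative chosen after seeing the data, 0 genes were called. DESeq2 called 7 genes, and 0 to 1 were called with 1 mouse left out. The sign of single genes turned, with no call, as log2 fold changes: without covariates Adipoq 0.0997, and with batch as only covariate Cidec -0.13, and with sample weights in voom Plin1 -0.12, Cidec -0.0533, Pck1 -0.00172 and Scd1 -0.0978, and in batch 1 alone Plin1 -1.13, Cidec -1.33, Cfd -0.41, Retn -0.45, Pck1 -1.12 and Scd1 -0.69, and in batch 1 without CTRL_Female replicate 2 Plin1 -0.51, Cidec -0.69 and Pck1 -0.59, and in batch 2 alone Adipoq 0.72, Fabp4 0.0219 and Lep 1.07, and in males alone Adipoq 0.39 and Lep 0.17, and in females alone Plin1 -0.064, Cidec -0.38, Retn -0.0207, Plin4 -0.12 and Scd1 -0.14, and in females without CTRL_Female replicate 2, an alternative chosen after seeing the data, Adipoq 0.15, Lep 0.0583 and Plin4 -0.12. With 1 mouse left out, the ranges that crossed 0 were Adipoq -0.18 to 0.27, Plin1 -0.0559 to 0.46, Cidec -0.0871 to 0.33 and Pck1 -0.18 to 0.43. The labels tie the replicate numbers to no shared litter or day. The deviations of same-numbered HK and CTRL mice had correlations from 0.0584 to 0.174 in the 5 female pairs (4 over 0.1, all 5 best with their own number) and from -0.425 to 0.0523 in the 5 male pairs (0 over 0.1, 1 best with its own number). Replicates 1 and 2, the only batch 1 mice of each sex and treatment, shared 1 value (0.174 in females, -0.425 in males). The 5 pairs of a sex are therefore not separate comparisons. Not every pair was over 0.1, so the numbers were not taken to pair the mice, with at most a hint of pairing among females. With the number as a replicate block, 0 genes and 0 of the 10 were called.

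For Male minus Female, 5 of the 10 were called by voom (2252 of 13626 genes called) and 5 with sample weights (2596 of 13626). In batch 1 alone 0 were called (1316 of 13664 genes called) and in batch 2 alone 3 (878 of 13329). With 1 mouse left out, 5 to 8 were called (1827 to 2281 genes), the 5 without CTRL_Female replicate 2 or HK_Female replicate 4. All 10 stayed below 0 in each of these fits. For batch 2 minus batch 1, 9 of the 10 were called without the filter (5560 genes called), in the fit with infinite prior degrees of freedom. With the newer quasi-likelihood and no filter, chosen after seeing the data, 5 were called (5132 genes called). In untreated mice alone 2 were called (2192 genes called, Plin1 at -0.30) and in HK mice alone 5 (1476 genes called, Lep at 1.79). With 1 mouse left out, 3 to 9 were called (4451 to 5235 genes). Lep was at 0.0129 in voom and -0.60 to 0.41 with 1 mouse left out. DESeq2 called 141 genes for the difference between sexes by batch, where edgeR called 0, and none of the 10. Without CTRL_Female replicate 2, HK by sex turned to Fabp4 -0.13 and Pck1 -0.046 and sex by batch to Adipoq -0.0645, Cidec -0.53 and Scd1 -0.26. The cause of these changes was not tested. Leptin rested on 0 to 385 reads a mouse.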

Other observations

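Genes of lipolysis and the lipid droplet varied in how far they followed the adipocyte genes from mouse to mouse. The 16 genes of lipolysis and the lipid droplet that passed the filter had a median r of -0.05 with the mean of the 10 adipocyte genes, from -0.42 for Pnpla2, the triglyceride lipase, to 0.49 for Lipe, the hormone-sensitive lipase. Of the perilipins of fibres, Plin2 had r = 0.45 and Plin5 -0.09. Of the 16, Pnpla3 (log2 fold change -0.98) and the fatty acid transporter Cd36 (-0.31) were called lower in males and Fitm1 (0.19), which helps droplets form, higher. Over all 13626 genes tested, 999 were called lower in males and 1198 higher, so these counts are near the shares of all genes. Fabp3 and Fabp5, the other fatty acid binding proteins that passed the filter, had r of -0.13 and 0.10, and neither was called between the sexes.

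Among receptors for adipokines and insulin, Lepr, the leptin receptor, had r = 0.81, while Adipor1 (-0.15), Adipor2 (-0.16), Cdh13 (0.12) and Insr (-0.05) were near 0. Of 8 brown and beige fat genes 5 passed the filter, with a median r of -0.11. Of these, Cox8b (0.42) and Cox7a1 (0.31) were called higher in males, where 1198 of all 13626 genes tested were. Muscle itself makes both.

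Of 6 lymphocyte genes, 0 passed the filter. The summed level of the 6 was 11.2 CPM in HK_Female replicate 1, the female lowest in most of the adipocyte genes. The next female, HK_Female replicate 4, had 2.45 CPM and the highest of the males 2.83 CPM. The high sum rests on 1 mouse, and a link with its low adipocyte genes was not tested.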
